A study of Mus musculus with 4 samples.

Results

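The 9 genes described here belong to the Hox and TALE homeobox families and were followed through 4 single-cell libraries of mouse bone marrow. They are Hoxb2, Hoxb3, Hoxb4, Hoxb5, Hoxa5, Hoxa7, Hoxa9, Hoxa10 and Meis1, out of 32285 genes in the files. They were picked by name, with earlier results of these data known, and their UMIs (unique molecular identifiers, 1 per captured transcript) were summed in 6 sets of cells. Each set was defined by the UMIs of 1 other gene: at least 1 of Hlf, a transcription factor of blood stem cells; at least 2 of Flt3, a receptor of multipotent and lymphoid-primed progenitors; at least 3 of Pf4, of megakaryocyte progenitors; at least 10 of Elane, of granulocyte progenitors; at least 10 of Car1, of erythroid progenitors; and at least 3 of Cd79a, part of the B-cell receptor complex. These sets are called Hlf, Flt3, Pf4, Elane, Car1 and Cd79a cells below. The donor-marked CD45.2+ cells were taken 10 weeks after transplantation and run on a 10x Genomics 5′ kit of version 2. There was 1 library each of Kit+ control cells, Kit+ cells labelled Mll3/4 deleted, Kit+ cells labelled Mll3/4SI and B220lo control cells. Mll3 and Mll4 (Kmt2c and Kmt2d) are histone methyltransferases that act mainly at enhancers. The labels used here spell out neither SI nor the agent that deleted the genes, its promoter, the host, or how many mice were pooled in a library.

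Hox genes lie in clusters and encode transcription factors. In blood, the HoxA and HoxB clusters are used most, the genes are high in stem and early progenitor cells, and their level drops as cells mature. Meis1 encodes a TALE homeodomain protein that binds DNA with HOX and PBX proteins. HOXA9 and MEIS1 together drive leukemia when they stay on, and HOXB4 is known for expanding stem cells in culture. In normal B-lineage cells these genes are low after the earliest stages.

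After filters, 11051 control Kit+, 13747 deleted, 11501 Mll3/4SI and 15380 control B220lo cells remained, with median totals of 11594, 6507, 11969 and 3246 UMIs. Each pair of libraries shared 214 to 345 cell barcodes, between 1.48% and 2.34% of a library's barcodes. Summed UMIs of 4 Y-linked genes were at 149 CPM (UMIs of a gene per UMI of the cells summed, scaled to the usual counts-per-million unit) in the deleted library and at most 0.515 CPM in the others, so the deleted library stood far above the others for Y-linked transcripts. Kmt2c stood at 58.1 CPM in control Kit+ and 51.8 CPM in deleted cells and Kmt2d at 24.0 and 20.1 CPM, but where the deleted part lies is not given, so these reads do not check the label. Marker lists were summed to look at the cell sets. Since each list holds the gene that defines a set, the lists were also summed without that gene. In control, stem-cell genes without Hlf summed to 917 CPM in Hlf cells, close to the 937 CPM in Flt3 and 804 CPM in Pf4 cells, and to 527 in Elane cells and 314 in Car1 cells. Megakaryocyte genes without Pf4 summed to 1367 CPM in Pf4 cells and at most 212 CPM in the Hlf, Flt3, Elane and Car1 cells. Granulocyte genes without Elane summed to 29688 CPM in Elane cells and at most 12330 CPM in the Hlf, Flt3, Pf4 and Car1 cells. Erythroid genes without Car1 summed to 2202 CPM in Car1 cells and at most 603 CPM in the Hlf, Flt3, Pf4 and Elane cells. Lymphoid-primed genes without Flt3 summed to 328 CPM in Flt3 cells and at most 172 CPM in the Hlf, Pf4, Elane and Car1 cells. With Flt3 they summed to 565 CPM in control Flt3 cells, below granulocyte genes at 14330 CPM. Granulocyte genes also outweighed the set's own list in control Hlf cells (17081 against 1068 CPM) and Pf4 cells (4879 against 3964 CPM). Of the control Flt3 cells 42.5% were Hlf cells too, and in the deleted Flt3 cells B-lineage genes summed to 12716 CPM. The Hlf cells of control, deleted and Mll3/4SI differed in other lineages, with granulocyte genes at 17081, 23277 and 13110 CPM, erythroid genes at 792, 168 and 264 CPM and megakaryocyte genes at 409, 136 and 305 CPM. T or NK genes, of which 1 of 6 had UMIs in the deleted cells, stood at 459, 373 and 82.0 CPM. The part of these in the Hlf values was not tested beyond the selections given below. With 1 library a group no difference between groups could be tested. Genotype and Y-linked transcripts differed together in every comparison of the deleted library and cannot be told apart. The 95% intervals given are exact Poisson intervals for levels, exact conditional intervals for ratios and Clopper-Pearson intervals for shares, and they cover counting error only. The sets held, in the order control, deleted and Mll3/4SI, 2493, 186 and 3238 Hlf cells, 1066, 830 and 1227 Flt3 cells, 590, 13 and 472 Pf4 cells, 4223, 554 and 3345 Elane cells and 2288, 62 and 869 Car1 cells. Sets under 50 cells were not compared, which leaves out the Pf4 cells of the deleted library.

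By the GENCODE M21 annotation of GRCm38, the HoxB genes lie on the plus strand of chromosome 11, with Hoxb5 at chr11:96303336-96306121, Hoxb4 at chr11:96318267-96321638, Hoxb3 at chr11:96323326-96347930 and Hoxb2 at chr11:96350525-96354012. The HoxA genes lie on the minus strand of chromosome 6, with Hoxa5 at chr6:52201754-52204587, Hoxa7 at chr6:52214491-52221854, Hoxa9 at chr6:52223100-52231089 and Hoxa10 at chr6:52231197-52240854. Meis1 lies on the minus strand at chr11:18879817-19018985. Antisense genes overlap Hoxb2 and Hoxb3 (Hoxb3os), Hoxb5 (Hoxb5os), Hoxa5 and Hoxa7 (Hoxaas3) and Meis1 (Gm16140, Gm16141), and Hoxa3 overlaps Hoxa5 on its own strand. Whether strand was used in counting is not given in the sources used here, so reads of these genes and their partners may not be told apart. Hoxb4 and Hoxa10 overlap no other annotated gene.

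RefSeq promoter windows (GRCm38.p6, from 250 bases before to 50 after a RefSeq start of the gene) were matched for 6 of the 9 genes: Hoxb4, Hoxa5, Hoxa7, Hoxa9, Hoxa10 and Meis1. The windows of 4 genes are shown because the results turn on them: Hoxa9, Hoxa10 and Meis1 were among the genes with higher levels in B-lineage cells of the deleted library than of the B220lo library, as were Hoxa5 and Hoxa7, and Hoxb4 was the HoxB gene that differed least between Mll3/4SI and control. They are written 5′ to 3′ on the gene's strand, with the NF-Y box CCAAT, read on either strand, in capitals. The windows are chr11:96318017-96318316 (plus) for Hoxb4, chr6:52227321-52227620 (minus) for Hoxa9, chr6:52234890-52235189 (minus) for Hoxa10 and chr11:19018920-19019219 (minus) for Meis1. Those of Hoxa9 and Hoxa10 lie inside the GENCODE spans given above, not at the starts of those spans. A second Hoxa10 window, not shown, holds the start of the GENCODE span.
Hoxb4: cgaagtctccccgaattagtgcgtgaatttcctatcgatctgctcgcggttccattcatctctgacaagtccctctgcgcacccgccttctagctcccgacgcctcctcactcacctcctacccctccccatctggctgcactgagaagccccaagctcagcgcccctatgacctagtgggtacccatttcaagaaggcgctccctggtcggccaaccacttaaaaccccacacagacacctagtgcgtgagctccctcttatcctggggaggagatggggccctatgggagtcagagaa
Hoxa9: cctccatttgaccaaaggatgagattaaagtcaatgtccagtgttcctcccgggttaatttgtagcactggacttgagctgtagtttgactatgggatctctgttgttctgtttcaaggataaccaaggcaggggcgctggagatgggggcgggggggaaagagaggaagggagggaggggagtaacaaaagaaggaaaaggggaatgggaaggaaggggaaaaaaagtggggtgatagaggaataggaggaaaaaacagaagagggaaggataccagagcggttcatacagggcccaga
Hoxa10: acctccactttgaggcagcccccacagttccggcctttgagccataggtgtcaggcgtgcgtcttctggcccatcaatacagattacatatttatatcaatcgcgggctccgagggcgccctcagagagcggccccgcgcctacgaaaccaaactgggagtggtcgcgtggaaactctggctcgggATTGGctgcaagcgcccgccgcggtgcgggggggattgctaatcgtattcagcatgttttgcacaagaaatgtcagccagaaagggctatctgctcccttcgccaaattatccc
Meis1: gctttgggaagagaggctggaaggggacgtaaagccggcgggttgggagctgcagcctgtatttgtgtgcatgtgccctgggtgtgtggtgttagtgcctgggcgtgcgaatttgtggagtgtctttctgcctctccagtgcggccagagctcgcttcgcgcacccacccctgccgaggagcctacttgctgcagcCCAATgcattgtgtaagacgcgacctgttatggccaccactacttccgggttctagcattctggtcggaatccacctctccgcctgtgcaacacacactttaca

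CCAAT was in the Meis1 window, in the Hoxa10 window shown and in that of Hoxa5, but not in the other Hoxa10 window (chr6:52240805-52241104), against 37.4% of the 32851 windows in the table. The E-box CACGTG (7.15% of windows), the MEIS letters TGACAG (19.2%) and the PBX-HOX letters TGATTNAT (3.22%), each read on both strands, matched none of the 7 windows of these genes. The Hoxa9 window held 4 CpG pairs, below the table's median of 7, while that of Hoxb4 held 14, that of Meis1 15 the Hoxa10 window shown 21 and the other one 12. A match or its lack describes these letters only.

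In the control Kit+ library the genes fell into patterns that differed between cell sets. The sets share cells, as 453 of the 1066 Flt3 cells, 164 of the 590 Pf4 cells and 707 of the 4223 Elane cells were Hlf cells too. Intervals of different sets are therefore not independent. Meis1 stood at 293 CPM in Pf4 cells, 149 in Hlf cells, 100 in Flt3 cells, 29.2 in Elane cells and 27.0 in Car1 cells. The first 3 steps of that order were wider than the counting intervals, while Elane and Car1 cells were close. Hoxa9, the HoxA gene with most UMIs here, was at 54.6 CPM in Flt3 cells, 49.8 in Hlf cells, 27.8 in Pf4 cells, 26.0 in Elane cells and 21.6 in Car1 cells. Its level was thus highest in the Flt3 and Hlf cells, whose intervals overlapped each other, as did those of Pf4 and Elane cells. Hoxb2 was at 10.9 CPM in Pf4 cells, 8.60 in Hlf cells, 5.20 in Flt3 cells, 5.16 in Car1 cells and 3.23 in Elane cells, with overlapping intervals for Pf4 and Hlf cells and for Flt3 and Car1 cells. Hoxb4 moved little between sets, from 9.90 to 11.3 CPM in Hlf, Flt3, Pf4 and Elane cells, and was at 5.40 CPM in Car1 cells. Hoxb5, which marks long-term stem cells in mouse marrow, was at 5.26 CPM in Pf4 cells and 2.15 in Hlf cells and at 1.18 CPM or less in the other sets. Hoxa10 was at 5.68, 4.57 and 3.40 CPM in Pf4, Hlf and Flt3 cells and at 0.512 and 0.747 in Elane and Car1 cells, a step down in both.

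**Figure D1:**
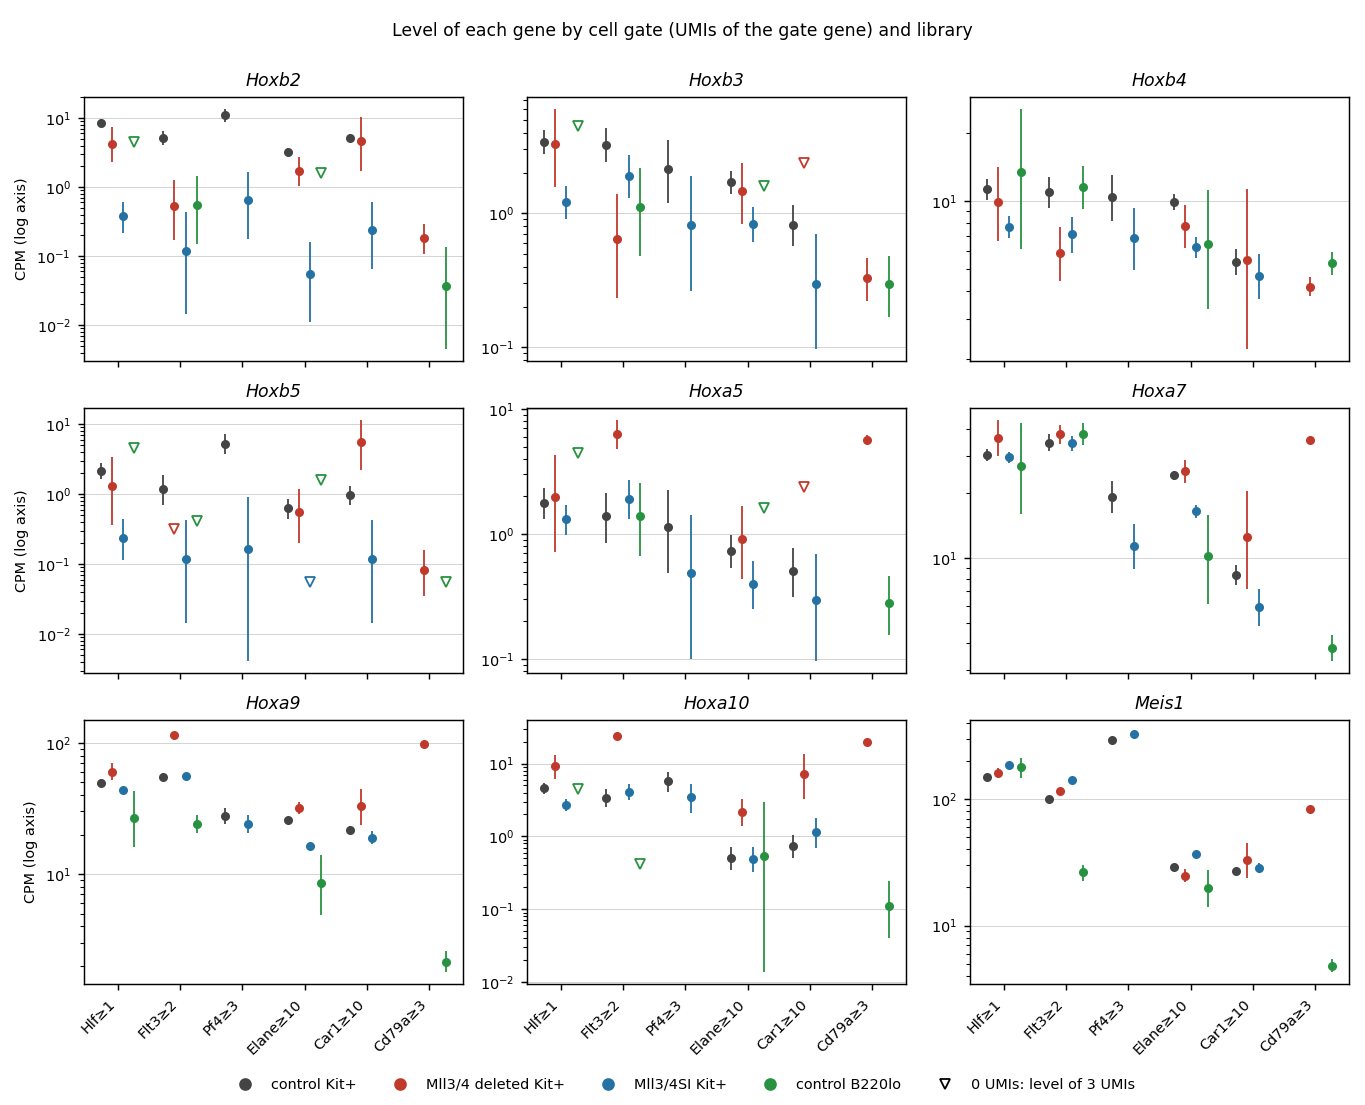
Level of each gene in CPM (log axis) in the 6 sets of cells, named by the UMI minimum of the gate gene, for the 4 libraries. Bars are 95% Poisson intervals, open triangles mark sets with 0 UMIs at the level of 3 UMIs, and sets under 50 cells are left out. The Mll3/4SI points of Hoxb2 and Hoxb5 sit far under the control Kit+ points, and the deleted Cd79a cells sit far above the control B220lo cells for the 4 HoxA genes and Meis1.

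Within the Hlf cells, levels of several genes went up with the number of Hlf UMIs. In control cells with 1, with 2 to 3 and with 4 or more Hlf UMIs, Meis1 was at 118, 193 and 226 CPM. Hoxa9 was at 41.9, 58.7 and 76.5 CPM in the same cells, and Hoxb2 at 6.97, 10.6 and 13.8 CPM. Hoxb4 was at 10.4, 12.7 and 12.7 CPM, so it varied less with Hlf. The cells just outside the threshold, with 0 Hlf UMIs, held Meis1 at 59.5, Hoxa9 at 27.2 and Hoxb2 at 4.94 CPM in the control Kit+ library.

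The Mll3/4SI cells were short of Hoxb2 and Hoxb5 transcripts. In Hlf cells Hoxb2, a gene near the 3′ end of the HoxB cluster, was at 8.60 CPM in control (252 UMIs) and 0.381 CPM in Mll3/4SI (16 UMIs), a ratio of 0.0443 (95% interval 0.0249 to 0.0733). Hoxb5 was at 2.15 and 0.238 CPM, a ratio of 0.111 (0.0506 to 0.217). Neither gene's intervals overlapped between the 2 libraries. Hoxb3 was at 3.41 and 1.21 CPM, a ratio of 0.356 (0.249 to 0.503). Hoxb4 was at 11.3 and 7.69 CPM, a ratio of 0.683 (0.584 to 0.798). The 4 HoxB genes were therefore lowered to very different degrees, least for Hoxb4, although Hoxb4 lies between Hoxb3 and Hoxb5. On the scale of log2(CPM + 1), 2 of the 9 genes, Hoxb2 and Hoxb5, were 2-fold or more lower and none was 2-fold or more higher, against 1.04% and 1.37% of the 14621 genes with at least 20 UMIs. Hoxb3, at a plain ratio of 0.356, fell just short on that scale, which understates the change of low genes. The genes had been chosen with these values known, so the count describes them and is no test. The median log2 ratio was −0.50 over the 9 genes and 0.018 over all 14621.

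Hoxa7, Hoxa9 and Meis1 were closer to control in the Hlf cells, while Hoxa10 was lower than control by more than Hoxb4. Hoxa7 was at 30.2 CPM in control and 29.5 in Mll3/4SI, a ratio of 0.977 (0.895 to 1.07). Hoxa9 was at 49.8 and 43.6 CPM, a ratio of 0.876 (0.817 to 0.939). Hoxa5 was at 1.77 and 1.31 CPM, a ratio of 0.738 (0.496 to 1.10). Hoxa10 was at 4.57 and 2.74 CPM, a ratio of 0.598 (0.462 to 0.774). All ratios of this cluster lay above those of Hoxb2, Hoxb3 and Hoxb5. Summed over 4 genes, HoxA was at 86.3 and 77.1 CPM (ratio 0.894, 0.848 to 0.942) and HoxB at 25.4 and 9.52 CPM (ratio 0.374, 0.331 to 0.423). Meis1 was at 149 CPM in control and 188 in Mll3/4SI, a ratio of 1.26 (1.21 to 1.31).

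The Meis1 difference moved with the make-up of the Hlf set. Mast and basophil genes summed to 266 CPM in the control Hlf cells and 1027 CPM in those of Mll3/4SI, all 8 genes of the list having UMIs in both, and 700 of the 3238 Mll3/4SI Hlf cells against 17 of 2493 control cells also had at least 3 UMIs of Fcer1a, a chain of the IgE receptor. Without such cells Meis1 was at 148 and 160 CPM, a ratio of 1.08 (1.04 to 1.12). In Hlf cells that belonged to no other set it was at 259 and 229 CPM, a ratio of 0.886 (0.840 to 0.935), so its direction turned. Hoxb2 kept ratios of 0.0572 (0.0322 to 0.0948) and 0.0495 (0.0232 to 0.0939) in those same 2 selections, and Hoxb5 of 0.127 and 0.132. Hoxa10 had ratios of 0.714 (0.548 to 0.928) and 0.445 (0.299 to 0.657) there, and of 0.440 (0.256 to 0.755) in cells with 4 or more Hlf UMIs, where it too was 2-fold lower. Meis1 stayed above control in cells with 4 or more Hlf UMIs (ratio 1.16, 1.05 to 1.27). It did so too in cells of both the Hlf and Flt3 sets (1.22, 1.12 to 1.33). The Hoxb2 and Hoxb5 differences were thus of similar size with and without the Fcer1a cells. Without Fcer1a cells the intervals of Hoxa9 (ratio 0.938, 0.872 to 1.01) and the HoxA sum (0.960, 0.909 to 1.01) held 1. In Hlf cells of no other set both lay below 1, at 0.790 (0.710 to 0.880) and 0.797 (0.734 to 0.865). These selections were added after the data were seen.

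**Figure D2:**
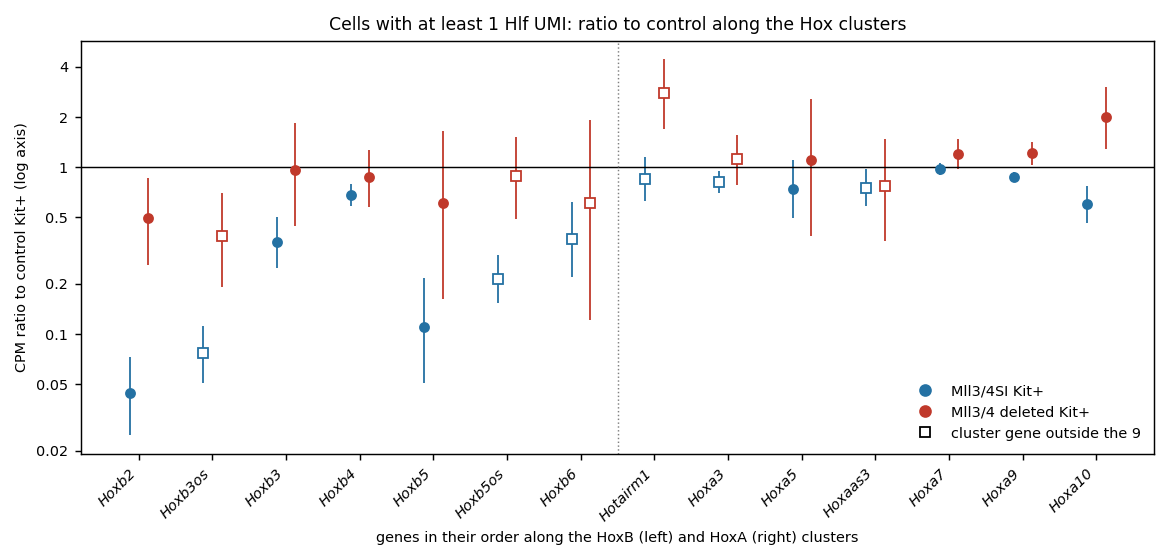
Ratio of CPM to the control Kit+ library (log axis) in Hlf cells for genes of the HoxB (left) and HoxA (right) clusters in their order along the cluster, with 95% counting intervals. Filled circles are genes of the 9 and open squares are other cluster genes with at least 20 UMIs. Hoxa2, Hoxa4 and Hoxa6 also reached that minimum in Mll3/4SI, at ratios of 1.59, 1.08 and 0.761, but are not drawn. In Mll3/4SI (blue) Hoxb2, Hoxb3os, Hoxb5 and Hoxb5os lie lowest, at 0.0443, 0.0766, 0.111 and 0.215, and in the deleted library (red) Hotairm1 lies highest, at 2.78.

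Other genes of the HoxB cluster, noncoding ones and Hoxb6, were low as well. Hoxb3os, antisense across Hoxb2 and Hoxb3, was at 9.32 CPM in control Hlf cells and 0.714 CPM in Mll3/4SI, a ratio of 0.0766 (0.0507 to 0.112). Hoxb5os was at 5.53 and 1.19 CPM, a ratio of 0.215 (0.153 to 0.297), and Hoxb6 at 1.60 and 0.595 CPM, a ratio of 0.371 (0.219 to 0.615). The overlap means that the values of Hoxb2 and Hoxb3os, and of Hoxb5 and Hoxb5os, may share reads. Outside the cluster, none of the 8 neighbouring genes with at least 20 UMIs, of 11 listed, was 2-fold higher or lower (1.37% and 1.04% of all genes tested) on the log2(CPM + 1) scale, which understates the change of low genes. The farthest from control were Copz2, a coat protein gene, at 13.9 against 8.29 CPM and Skap1, a T-cell adaptor gene, at 0.452 against 0.921 CPM, a plain ratio of 0.491 (0.258 to 0.916).

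Hoxb2 was low in every set of Mll3/4SI cells compared. In Flt3 cells it was at 5.20 CPM in control and 0.120 in Mll3/4SI, where 2 UMIs were counted (ratio 0.0230, 0.00273 to 0.0860). In Pf4 cells it was at 10.9 and 0.653 CPM (ratio 0.0597, 0.0159 to 0.159). In Elane cells it was at 3.23 and 0.0546 CPM, the latter 3 UMIs of 54954845 (ratio 0.0169, 0.00345 to 0.0501). Car1 cells had 5.16 and 0.239 CPM (ratio 0.0463, 0.0125 to 0.120). Hoxb2 was thus low in all 5 sets, and in each the intervals of the 2 libraries were apart. Hoxb5 had 39 UMIs in control Elane cells and 0 in those of Mll3/4SI. This was at least 11.4-fold lower when 3 counts are set for Mll3/4SI and the control UMIs are taken as counted. The interval of the ratio, which covers both counts, ended at 0.113. In Pf4 cells it was at 5.26 and 0.163 CPM, the latter 1 UMI (ratio 0.0310, 0.000766 to 0.184).

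Counted by the 2-fold rule, 1 of 8 genes was lower in Flt3 cells (0.919% of all genes tested), 2 of 8 in Pf4 cells (2.44%), 1 of 9 in Elane cells (0.496%) and 1 of 9 in Car1 cells (0.484%). The gene was Hoxb2 each time, joined by Hoxb5 in Pf4 cells, but a gene under 1 CPM in control cannot reach 2-fold lower on the log2(CPM + 1) scale. This held for Hoxb5, Hoxa5 and Hoxa10 in Elane and Car1 cells and for Hoxb3 in Car1 cells. The plain ratios of Hoxb5 and Hoxb3 in Car1 cells were 0.124 (0.0145 to 0.478) and 0.364 (0.111 to 0.936). By the rule none was 2-fold higher (1.59%, 2.51%, 1.22% and 0.753% of all genes tested in the 4 sets). The HoxB sum stood at ratios of 0.450, 0.296, 0.461 and 0.431 in the Flt3, Pf4, Elane and Car1 cells. Hoxb4 stayed closer to control, with ratios of 0.649, 0.661, 0.630 and 0.863 in the same sets.

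The HoxA genes differed by cell set. In Flt3 cells Hoxa9 was at 54.6 and 55.5 CPM (ratio 1.02, 0.924 to 1.12) and Hoxa7 at 34.5 and 34.3 CPM (ratio 0.994, 0.880 to 1.12). In Elane cells Hoxa9 was at 26.0 and 16.2 CPM (ratio 0.623, 0.574 to 0.677) and Hoxa7 at 24.3 and 16.5 CPM (ratio 0.679, 0.625 to 0.738). Both genes were thus close to control in Flt3 cells and lower in Elane cells. In Pf4 cells Hoxa7 was at 19.3 and 11.4 CPM (ratio 0.591, 0.437 to 0.795), and mast and basophil genes stood at 80.8 and 1257 CPM there, 250 of the 472 Mll3/4SI cells being Fcer1a cells too. Megakaryocyte genes stood at 3964 and 2230 CPM, granulocyte genes at 4879 and 2246 CPM and erythroid genes at 892 and 406 CPM in the same cells, and their part in the Pf4 values was not tested. Without those cells the Hoxa7 ratio was 0.700, with an interval from 0.481 that ended at 1, and the Hoxb2 ratio 0.120 (0.0320 to 0.321). Meis1 was at 100 and 142 CPM in Flt3 cells (ratio 1.41, 1.32 to 1.51), 29.2 and 36.6 CPM in Elane cells (ratio 1.25, 1.18 to 1.34) and 27.0 and 28.5 CPM in Car1 cells (ratio 1.06, 0.948 to 1.18). Mast and basophil genes stood at 146 and 488 CPM in Flt3 cells, 278 and 728 CPM in Elane cells and 28.1 and 119 CPM in Car1 cells. In Flt3 cells granulocyte genes stood at 14330 and 10365 CPM, erythroid genes at 335 and 128 CPM and T or NK genes at 333 and 52.1 CPM. In Elane cells these lists stood at 43721 and 49474, 137 and 56.1, and 718 and 275 CPM. The part of these lists in the HoxA and Meis1 values was not tested there.

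The Fcer1a cells, 127 in control and 2341 in Mll3/4SI, held 15 UMIs of Hoxb2 in control (10.53 CPM) and 0 of 30769683 UMIs in Mll3/4SI. This was at least 108-fold lower when 3 counts are set for Mll3/4SI and the control UMIs are taken as counted, and the interval of the ratio, which covers both counts, ended at 0.0129. Hoxa9 was at 42.1 and 16.6 CPM (ratio 0.394, 0.301 to 0.524), and Meis1 at 135 and 255 CPM (ratio 1.89, 1.64 to 2.20). Hoxa9 and Meis1 therefore stood on opposite sides of control in these cells. Other lineage lists differed too: granulocyte genes summed to 9222 CPM in control and 6099 in Mll3/4SI, erythroid genes to 478 and 176 CPM, megakaryocyte genes to 404 and 552 CPM, T or NK genes, of which 1 of 6 had UMIs in control, to 526 and 41.5 CPM, and basophil or mast genes without Fcer1a to 2466 and 2192 CPM. Their part in these values was not tested. Of the 4 genes with at least 20 UMIs, 1, Hoxa9, was 2-fold lower, against 4.59% of all genes tested. The set was added after the data were seen.

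In the deleted library, Hlf cells were few. Their HoxB levels were closer to control than those of Mll3/4SI, while Hoxa7, Hoxa9 and Hoxa10 lay farther from control and above it. Hoxb2 was at 8.60 CPM in control and 4.27 in deleted cells, where 13 UMIs were counted (ratio 0.496, 0.260 to 0.864). Hoxb3, Hoxb4 and Hoxb5 had ratios of 0.961, 0.874 and 0.610 with intervals that held 1. Hoxa9 was at 49.8 and 60.4 CPM (ratio 1.21, 1.03 to 1.41) and Hoxa7 at 30.2 and 36.4 CPM (ratio 1.21, 0.982 to 1.47). Hoxa10 was at 4.57 and 9.19 CPM, from 134 and 28 UMIs (ratio 2.01, 1.29 to 3.04). Meis1, at 149 and 162 CPM, had a ratio of 1.09 (0.989 to 1.19). The HoxB sum was lower (ratio 0.736, 0.552 to 0.964) and the HoxA sum higher (1.25, 1.11 to 1.40). By log2(CPM + 1), 0 of the 9 genes were 2-fold higher or lower, against 2.13% higher and 3.74% lower of the 13346 genes tested. That scale understates the change of low genes, and the plain ratios of Hoxb2 and Hoxa10 were just past 2-fold. The deletion and the Mll3/4SI alleles share the control library, so their ratios are not independent: for Hoxb2 they were 0.496 and 0.0443, for Hoxb5 0.610 and 0.111, and for Hoxa10 2.01 and 0.598.

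B-lineage RNA was higher in the deleted Hlf cells. The 10 B-lineage genes all had UMIs there and summed to 1047 CPM, against 44.6 CPM in control Hlf cells, where Rag1 was at 0, and 24 of the 186 deleted cells were also Cd79a cells. Without Cd79a cells the list summed to 210 CPM in deleted and 44.3 CPM in control Hlf cells, and Hoxa10 was at 8.43 and 4.58 CPM (ratio 1.84, 1.12 to 2.91). The intervals of Hoxa9 (ratio 1.16, 0.976 to 1.37) and of the HoxB sum (0.783, 0.580 to 1.04) then held 1, and the HoxA sum had a ratio of 1.22 (1.08 to 1.39). In the 77 deleted Hlf cells of no other set, Hoxa10 was at 16.1 CPM against 7.56 in control (ratio 2.13, 1.15 to 3.71) and Hoxb2 at 6.04 against 14.8 CPM (ratio 0.408, 0.147 to 0.912). Hoxa9, at a ratio of 1.01 (0.780 to 1.30), Hoxa7, at 0.864 (0.589 to 1.23), and the HoxA sum, at 1.04 (0.856 to 1.25), had intervals that held 1 in these cells. The part of B-lineage RNA in the Hoxa10 values was not tested.

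In the Elane and Car1 cells of the deleted library Hoxa10 had the highest ratio of the 9 genes. In Elane cells it was at 0.512 CPM in control and 2.19 in deleted cells (ratio 4.27, 2.41 to 7.48), and without Cd79a cells at 0.513 and 1.52 CPM. In the 62 Car1 cells it was at 0.747 and 7.08 CPM from 31 and 9 UMIs (ratio 9.48, 3.97 to 20.4). The B-lineage list summed to 963 and 528 CPM in deleted Elane and Car1 cells and to 55.9 and 9.11 CPM in control. Without Cd79a cells it stood at 147 and 92.9 CPM in the deleted sets, and its part was not tested here either. Hoxb5 was at 0.964 and 5.51 CPM in Car1 cells, the latter 7 UMIs (ratio 5.72, 2.16 to 12.9). With each cell thinned at random to 5000 UMIs, any HoxB gene was found in 3 of 61 deleted Car1 cells (4.92%), against 6.44% in control. By the 2-fold rule Hoxa10 was the 1 higher gene of 9 in Elane cells (2.34% of all genes tested), a count that became 0 without Cd79a cells, where its log2 ratio was 0.73, and Hoxb5 and Hoxa10 were the 2 higher of 9 in Car1 cells (2.0%). None was 2-fold lower in either set (1.90% and 4.79%), which a gene under 1 CPM in control cannot reach on the log2(CPM + 1) scale. Hoxa9 was at 26.0 and 32.1 CPM in Elane cells (ratio 1.23, 1.10 to 1.38), and without the 92 Cd79a cells among the 554 deleted ones at 26.0 and 29.1 CPM, with overlapping intervals. Hoxb2 was at 3.23 and 1.73 CPM (ratio 0.536, 0.316 to 0.858), and at 3.22 and 1.98 CPM without Cd79a cells, where the intervals overlapped too. Meis1 was at 29.2 and 24.9 CPM (ratio 0.851, 0.747 to 0.967), and at 29.2 and 19.6 CPM without Cd79a cells. The HoxB sum had a ratio of 0.742 (0.611 to 0.894), and stood at 15.5 and 12.8 CPM without Cd79a cells. Megakaryocyte genes summed to 71.1 CPM in control and 8.38 in deleted Elane cells, erythroid genes to 137 and 20.8 CPM and mast and basophil genes to 278 and 165 CPM. The part of these lists in the Elane values was not tested.

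Most Flt3 cells of the deleted library were B-lineage cells. Of its 830 Flt3 cells, 772 were Cd79a cells, against 2 of 1066 in control. In the whole set Hoxa10 was at 3.40 CPM in control and 23.8 in deleted cells (ratio 7.01, 5.13 to 9.76), Hoxa5 at 1.39 and 6.31 CPM (ratio 4.55, 2.70 to 7.97) and Hoxa9 at 54.6 and 114 CPM (ratio 2.09, 1.90 to 2.29). Hoxb2 was at 5.20 and 0.534 CPM (ratio 0.103, 0.0324 to 0.251) and Hoxb3 at 3.26 and 0.641 CPM (ratio 0.197, 0.0687 to 0.461). Thus 3 HoxA genes were 2-fold higher (12.0% of all genes tested) and 2 HoxB genes 2-fold lower (12.6%) among 8 tested. In the 58 deleted Flt3 cells that were not Cd79a cells, Hoxa9 was at 78.6 against 54.7 CPM (ratio 1.43, 1.08 to 1.87) and Hoxa10 at 6.55 against 3.40 CPM from 5 UMIs (ratio 1.92, 0.598 to 4.80). Hoxb2 and Hoxb3 had 2 and 1 UMIs there, with ratios of 0.509 (0.0606 to 1.91) and 0.401 (0.00994 to 2.35). The HoxB sum, from 6 UMIs, had a ratio of 0.382 (0.139 to 0.841) and the HoxA sum of 1.43 (1.16 to 1.75). B-lineage genes still stood at 1881 CPM in these cells, against 51.9 CPM in control. Hoxa5 had 1 UMI there (ratio 0.942, 0.0227 to 5.89).

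B-lineage cells of the deleted library carried the 4 HoxA genes and Meis1 at higher levels than those of the B220lo library. Hoxa9 was at 98.1 CPM in its 12591 Cd79a cells and at 2.15 CPM in the 10839 Cd79a cells of the control B220lo library, a ratio of 45.6 (37.9 to 55.2). Hoxa10 was at 19.8 and 0.111 CPM, from 1935 and 6 UMIs (ratio 177, 81.4 to 484). Hoxa7 was at 35.6 and 3.82 CPM (ratio 9.31, 8.09 to 10.8). Hoxa5 was at 5.67 and 0.278 CPM (ratio 20.4, 12.2 to 36.6). Meis1 was at 83.6 and 4.82 CPM (ratio 17.3, 15.3 to 19.7). No interval of these 5 genes overlapped between the libraries, and the Hoxa9 and Hoxa10 levels were above those of 49.8 and 4.57 CPM in control Hlf cells, while Meis1 was below its 149 CPM there.

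HoxB genes stayed low in both kinds of B-lineage cell. Hoxb4 was at 4.19 CPM in deleted and 5.31 in B220lo Cd79a cells (ratio 0.789, 0.677 to 0.921). Hoxb3 was at 0.327 and 0.297 CPM (ratio 1.10, 0.586 to 2.15), and Hoxb2 at 0.184 and 0.0371 CPM, the latter 2 UMIs (ratio 4.95, 1.19 to 44.0). The cluster sums were 159 and 6.36 CPM for HoxA (ratio between 22.5 and 27.9) and 4.78 and 5.64 CPM for HoxB (ratio 0.847, 0.732 to 0.982). By the 2-fold rule 5 of 8 genes were higher and 0 lower, against 10.7% and 10.8% of the 16813 genes tested, with a median log2 ratio of 2.65 over the genes and 0.0088 over all.

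These 2 libraries differed in their sort, Kit+ against B220lo, and in Y-linked transcripts (149 and 0.515 CPM), as well as in genotype. Median totals in Cd79a cells were 6458 and 3077 UMIs. Stem-cell genes, all 10 with UMIs in both, summed to 534 CPM in deleted and 54.6 CPM in B220lo Cd79a cells. That list holds Kit, the gene of the Kit+ sort, and Kit was kept in the sums here and in the selection below. The stem-cell sums are therefore not independent of the sort or of that selection. The comparison was repeated on Cd79a cells with a Kit UMI and no UMI of Ms4a1 (CD20, of later B cells), a selection added after the data were seen that left 10559 deleted and 204 B220lo cells. Granulocyte genes summed to 5350 CPM in these B220lo cells and 1223 CPM in the deleted ones, against 492 and 1111 CPM over all Cd79a cells, and the selected cells still differed in stem-cell genes (579 CPM in deleted and 226 in B220lo), lymphoid-primed genes (1787 and 1112 CPM) and B-lineage genes (15211 and 10099 CPM). The part of these lists in the values below was not tested. Hoxa9 was at 97.7 and 18.6 CPM (ratio 5.25, 3.87 to 7.33) and Meis1 at 85.1 and 41.7 CPM (ratio 2.04, 1.66 to 2.53). Hoxa7 was at 34.8 and 15.9 CPM (ratio 2.19, 1.57 to 3.15). Hoxa10 was at 19.4 and 1.36 CPM, the latter 3 UMIs (ratio 14.3, 4.87 to 69.2). The ratios were thus smaller than over all Cd79a cells, and 5 of 7 genes were 2-fold higher, against 8.93% of 15219 genes, and 0 were 2-fold lower (9.17%). With a Kit and a Dntt UMI instead (Dntt encodes terminal transferase of pro-B cells), 10361 and 174 cells gave ratios of 5.38 (3.85 to 7.77) for Hoxa9, 3.24 (2.45 to 4.38) for Meis1 and 1.72 (1.25 to 2.44) for Hoxa7, which was then under 2-fold. Sort, genotype and the difference in Y-linked transcripts cannot be told apart with these libraries.

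**Figure D3:**
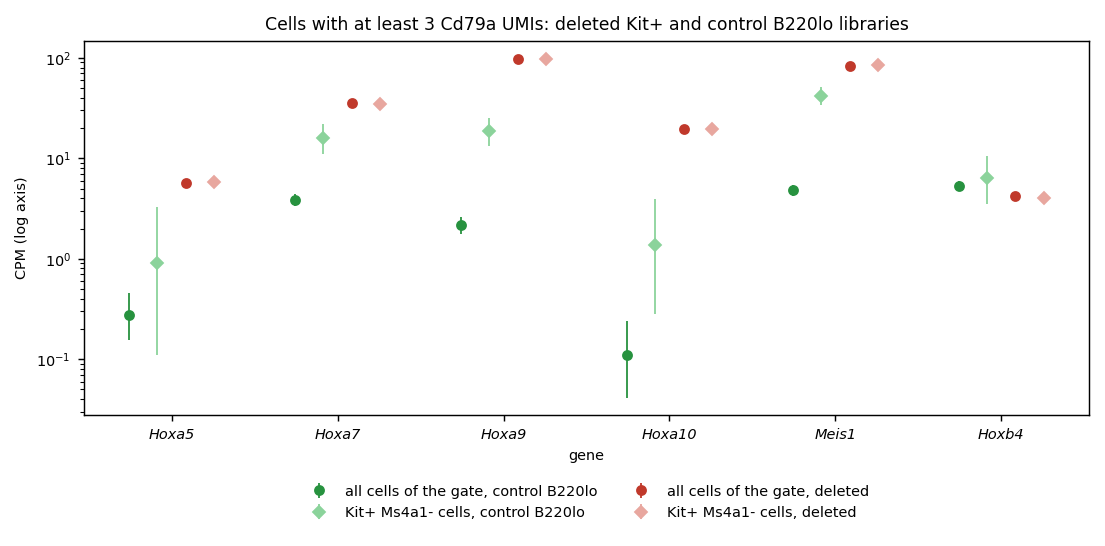
Level in CPM (log axis) of 6 of the genes in Cd79a cells of the control B220lo (green) and deleted Kit+ (red) libraries, over all such cells (circles) and over those with a Kit UMI and no Ms4a1 UMI (diamonds), with 95% Poisson intervals. Selecting Kit+ Ms4a1- cells gave higher B220lo values, for Hoxa9 from 2.15 to 18.6 CPM, and left the deleted values near 98.

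Detection in single cells was compared after thinning each cell to 5000 UMIs and leaving out shallower ones. In Hlf cells, 2167 control, 179 deleted and 3050 Mll3/4SI cells remained, with 326, 7 and 188 left out. A Hoxb2 UMI was found in 4.66%, 2.23% and 0.197% of them, and before thinning in 9.07%, 6.45% and 0.463%. In the Cd79a cells of the B220lo library, taken as cells that should lack the gene, it was found in 0.0365% of thinned cells. Any HoxB gene of the 4 was found in 12.3%, 7.82% and 5.11% of thinned cells, with intervals of 10.97 to 13.78% in control and 4.36 to 5.96% in Mll3/4SI. Any HoxA gene was found in 35.7%, 39.1% and 31.6%. Meis1 was found in 46.1%, 49.7% and 54.5%. The order of the libraries was thus that of the levels in each case. In Pf4 cells Meis1 was detected in 70.1% of control and 76.2% of Mll3/4SI cells, the highest shares among the sets compared.

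In Cd79a cells thinned in the same way, 8210 deleted and 2740 B220lo cells remained, and 4381 and 8099 shallower cells were left out. A UMI of any HoxA gene was found in 51.7% of the deleted and 3.91% of the B220lo cells, and a Meis1 UMI in 30.9% and 1.53%. Both together were found in 16.2% and 0.474%. A UMI of any HoxB gene was found in 2.10% and 2.70%, with intervals that overlapped. HoxA and HoxB UMIs were both present in 4.85% of control Hlf cells, 1.68% of deleted and 1.64% of Mll3/4SI ones.

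**Figure D4:**
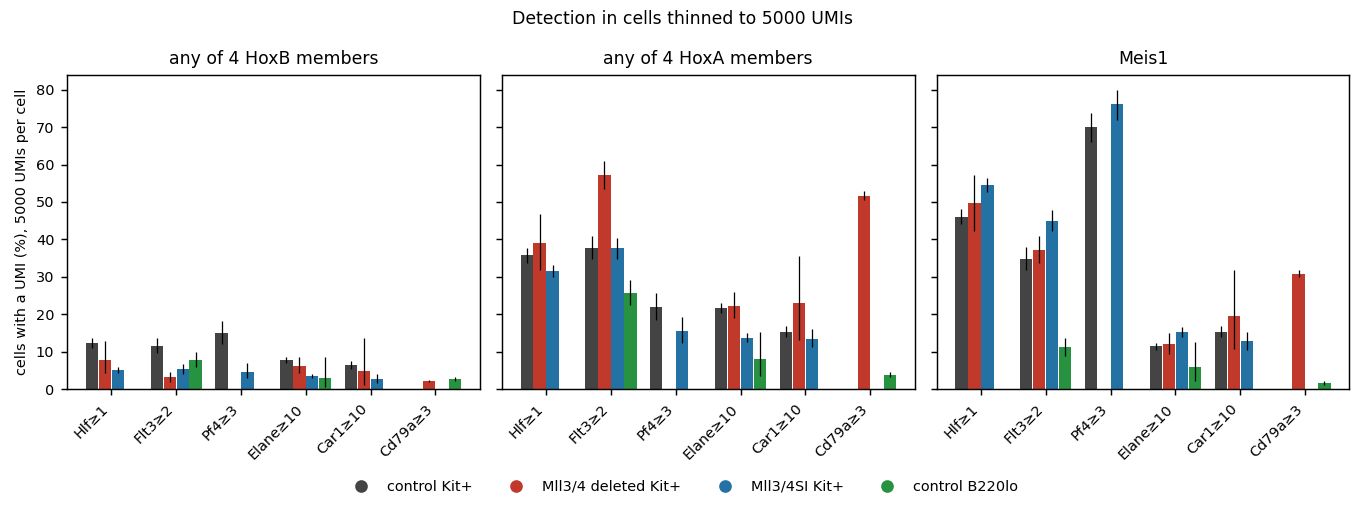
Share of cells (%) with a UMI of any of the 4 HoxB genes, any of the 4 HoxA genes, or Meis1, by cell set and library, with each cell thinned to 5000 UMIs. Bars start at 0, lines are 95% Clopper-Pearson intervals and sets under 50 cells are left out. HoxB bars are highest in control Kit+, and the HoxA bar of deleted Cd79a cells stands at 51.7% beside 3.91% in control B220lo.

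The B220lo library held 58 Hlf cells, whose B-lineage list summed to 2137 CPM. Hoxb2, Hoxb3, Hoxb5, Hoxa5 and Hoxa10 had 0 of 668227 UMIs there, which allows up to 4.49 CPM. Hoxa7 and Hoxa9 were both at 26.9 CPM from 18 UMIs, and Meis1 was at 178 CPM. Its Flt3 cells, in which plasmacytoid dendritic genes summed to 9279 CPM, had Hoxa7 at 37.8, Hoxa9 at 24.1 and Meis1 at 26.3 CPM. Hoxa10 had 0 UMIs there, against 23.8 CPM in the deleted Flt3 cells. This was at least 57.1-fold lower when 3 counts are set for B220lo and the deleted UMIs are taken as counted. The interval of the deleted over B220lo ratio, which covers both counts, started at 46.1. In that comparison 4 of 6 genes were 2-fold higher in the deleted cells, against 12.9% of all genes tested. The 2 sets differed in make-up, with 772 of 830 deleted and 122 of 817 B220lo Flt3 cells being Cd79a cells too. B-lineage genes summed to 12716 and 1613 CPM, and plasmacytoid dendritic genes to 1138 CPM in the deleted cells. The part of this in the values was not tested.

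Other genes of the pathway were taken from lists made with earlier results known. Among PBX, MEIS and other TALE partners, 8 of 11 had at least 20 UMIs in the Hlf cells, and 0 were 2-fold higher or lower in Mll3/4SI or in the deleted library on the log2(CPM + 1) scale, which is used for all counts of list genes. Over all genes tested 1.37% were higher and 1.04% lower in Mll3/4SI, and 2.13% and 3.74% in the deleted library. In Cd79a cells Pbx3, a HOX cofactor, was at 48.2 CPM in deleted and 8.02 CPM in B220lo cells (ratio 6.02, 5.45 to 6.66). Of 20 regulators of Hox genes tested in Hlf cells, such as polycomb, menin and DOT1L complex genes, 0 passed 2-fold in either library, beside those same low shares of all genes. The farthest in the deleted library was Kdm6a, an H3K27 demethylase of the MLL3/4 complexes, at 36.4 against 61.4 CPM. The libraries also differed in Y-linked transcripts, and the part of that difference in the Kdm6a values was not tested. In Cd79a cells 2 of 20 were higher, Men1 and Mllt3, and 2 lower, Aff1 and Kdm6a, shares like those of 10.7% and 10.8% over all genes tested.

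Of 13 genes known as targets in HOXA9 and MEIS1 leukemia, 0 passed 2-fold in Mll3/4SI Hlf cells on that scale (1.37% of all genes tested were higher and 1.04% lower). Trib2, a kinase-like gene, was at 1.90 against 4.37 CPM, a plain ratio of 0.436 (0.325 to 0.581). In the deleted Hlf cells 1 did (3.74% of all genes tested were lower and 2.13% higher). This was Flt3, at 29.2 against 63.1 CPM, and without Cd79a cells it was at 31.8 against 63.1 CPM (log2 ratio −0.97), just under 2-fold. Erg, a stem-cell ETS factor, was at 149, 189 and 181 CPM in control, deleted and Mll3/4SI Hlf cells. In the deleted Cd79a cells 2 of the 13 were 2-fold higher than in B220lo, Erg (469 against 68.0 CPM) and Flt3 (36.4 against 11.3 CPM), and 4 were lower, Lmo2, Pim1, Id2 and Syk, beside the same 10.7% and 10.8% of all genes. The median log2 ratio of the list was −0.25.

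Beside the HoxA cluster, Jazf1, a zinc-finger gene, was the 1 of 7 tested neighbours past 2-fold in the deleted Hlf cells (2.13% of all genes tested higher and 3.74% lower), at 11.8 against 2.29 CPM (ratio 5.17, 3.35 to 7.86). Without Cd79a cells it was at 3.83 against 2.29 CPM (ratio 1.67, 0.768 to 3.27), so the call rested on those cells. It was at 61.9 CPM in deleted and 3.30 in B220lo Cd79a cells (ratio 18.8, 16.2 to 21.9), where 2 of 8 tested neighbours, Jazf1 and Snx10, were 2-fold higher and 1, Skap2, was lower, beside 10.7% and 10.8% of all genes. Within the cluster Hotairm1, a noncoding RNA at its 3′ end, was at 2.83 CPM in control and 7.88 in deleted Hlf cells (ratio 2.78, 1.69 to 4.42), and without Cd79a cells at 2.83 and 8.81 CPM (ratio 3.11, 1.87 to 4.98). Hoxa3 was at 32.5 CPM in deleted and 1.24 in B220lo Cd79a cells. Of the 9 tested neighbours of Meis1, 0 passed 2-fold on the log2(CPM + 1) scale in Hlf cells of either library. Over all genes tested 1.37% were higher and 1.04% lower in Mll3/4SI, and 2.13% and 3.74% in the deleted library. Slc1a4, an amino acid transporter gene, was at 2.07 CPM in Mll3/4SI and 4.74 in control, a plain ratio of 0.436 (0.330 to 0.575).

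HoxC and HoxD genes were close to silent. The 9 HoxC genes had 8, 9, 25 and 3 UMIs in all kept cells of the control Kit+, deleted, Mll3/4SI and B220lo libraries, and the 9 HoxD genes 1, 1, 0 and 2. The 11 HoxA genes had 8887, 20125, 7812 and 1380 UMIs in the same cells and the 10 HoxB genes 2622, 709, 1246 and 527. The deleted library thus had the most HoxA UMIs, and the control Kit+ library the most HoxB.

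Across 15 combinations of cell set and Kit+ library with at least 50 cells, the gene most like Hoxb2 of 12256 was Hoxb3os (Pearson r = 0.96), followed by Nradd, Ecm1, Car3 and Nudt6. For Hoxa9 the leading genes were Prrg4 (0.96), Tox, Tnfrsf13c, Hoxa3 and Slc12a7, and for Meis1 Nbea (0.97), Ankrd29, Mef2c, Ccdc112 and Ap4s1. Hoxb4 was most like Elac1 (0.92), Nr0b2, Hoxb3, AI661453 and Phyhd1. Hoxa9 followed Hoxa5 (0.90), Hoxa10 (0.86) and Hoxa7 (0.80) far more closely than Hoxb2 (−0.079). These points share libraries, cells and depth, so the correlations only describe them.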

How the data were processed

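The measurements were droplet single-cell RNA counts in 4 libraries, 1 per group. The deposited matrices hold raw UMI counts per gene and cell barcode, made with Cell Ranger 7.1.0 on mm10, per the submitters' processing notes; other settings are not given in the sources used here. Cells with at least 1000 UMIs, 500 genes and at most 10% mitochondrial UMIs were kept, and those with a Scrublet score (scanpy 1.11.5) of at least 0.25 were left out as doublets (840, 1168, 580 and 949 cells of control Kit+, deleted, Mll3/4SI and B220lo). UMIs were summed per set of cells and library and divided by all UMIs of those cells to give CPM. The log2 ratio used CPM plus 1, and genes with at least 20 UMIs over both libraries were compared. Python 3.11.15, numpy 2.4.6, scipy 1.17.1 and pandas 2.3.3 were used, and the 2-fold rule was tested on simulated counts. The outcome of that run is not reported here, and no result above rests on it. The genes, cell sets and gene lists were chosen with earlier results of these data known. Genes outside the 9 were named by rule: up to 4 of each list with the largest log2 ratio in Hlf cells, other genes of the Hox clusters, and the 5 most correlated genes. List genes named in Cd79a cells were those past 2-fold, chosen after their values were seen. Other filters, thresholds, doublet settings and cell selections were tried as alternatives. Some list genes are not reported here.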

Additional observations from a re-analysis of the deposited data

How the results depend on the processing

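No paired analysis was possible because each group had 1 library and the groups share fewer than 2 replicate numbers, and no library could be left out of its group. In the Hlf cells the log2 ratio of the summed Hox genes, Mll3/4SI over control, was −0.36, and −0.26 without Fcer1a cells. For the deleted library it was 0.18, and −0.0013 in Hlf cells that were not Pf4, Elane, Car1, Cd79a or Fcer1a cells (−0.065 when Flt3 cells were left out too). The Meis1 log2 ratio of Mll3/4SI over control was 0.33, 0.46 with doublets kept, 0.17 with raised gate thresholds, 0.27 as a mean of single cells, 0.11 without Fcer1a cells and −0.16, the opposite direction, in the same selection (−0.17 without Flt3 cells). For the deleted library it was 0.12, and 0.27 with raised thresholds. Hoxa5 in deleted Flt3 cells turned from 1.61 to −0.049 without Cd79a cells. In deleted Elane cells the Hoxa10 log2 ratio went from 1.08 to 0.73 without Cd79a cells, and in deleted Hlf cells that of Jazf1 from 1.96 to 0.56. The Hoxb2 ratios of Mll3/4SI kept their direction under the alternatives run. At a minimum of 100 UMIs fewer of the 9 genes were compared. In Mll3/4SI 1 of 8 in place of 2 of 9 was then 2-fold lower in Hlf cells (1.14% of all genes tested). There were 0 of 5 lower in Flt3 cells (0.705%) and 0 of 4 in Pf4 cells (1.41%). In the deleted library 2 of 5 were higher (10.2% of all genes tested) and 0 lower (10.7%) in Flt3 cells. None was higher in Elane (1.65%) and Car1 cells (0.852%). Over B220lo 3 of 5 in place of 4 of 6 were higher in Flt3 cells (10.4%). Over all genes that minimum changed the counts 2-fold higher and lower. They went from 284 and 499 of 13346 to 111 and 327 of 10941 in deleted Hlf cells. In deleted Car1 cells they went from 252 and 603 of 12586 to 88 and 365 of 10333. In Mll3/4SI Pf4 cells they went from 298 and 290 of 11891 to 145 and 133 of 9403. In Mll3/4SI Fcer1a cells they went from 767 and 597 of 13020 to 469 and 346 of 10739. The higher count went from 327 of 13989 to 191 of 11597 in deleted Elane cells, and from 1652 of 12787 to 1060 of 10207 in deleted over B220lo Flt3 cells. The lower count went from 121 of 13166 to 76 of 10776 in Mll3/4SI Flt3 cells. With a minimum of 1 UMI the higher count of deleted Car1 cells was 440 of 18773. In Mll3/4SI Fcer1a cells 3 of 9 in place of 1 of 4 were then 2-fold lower (4.31% of all genes tested). Of the other values, nearly all of single genes, 685 stayed within their counting interval (counts: within 1.5 times) and 98 did not. A further 1 was reversed in direction. Values resting on under 10 UMIs, such as Hoxa10 in deleted Car1 cells, are limited by depth.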

Other observations

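Cells in none of the 6 sets and without the Fcer1a threshold numbered 2066 in control Kit+, 500 in the deleted, 2599 in the Mll3/4SI and 3720 in the B220lo library, with median totals of 5964, 2674, 7942 and 3405 UMIs. Meis1 was at 194, 315, 180 and 21.0 CPM in them, so the deleted library had the highest level. Hoxa9, at 44.6, 70.5, 22.6 and 5.56 CPM, followed the same order. Hoxb2 was at 9.14, 2.07, 0.167 and 0.324 CPM, and the sum of the 4 HoxB genes at 26.5, 10.4, 8.82 and 6.47 CPM. Hoxb2 was thus lowest in Mll3/4SI in these cells too. Marker lists are not given for these cells, so their make-up may differ between libraries. In the deleted library 243 kept cells had 2 Cd79a UMIs, just under the threshold, with a median total of 2867 UMIs. Meis1 was at 192 and Hoxa9 at 66.5 CPM in those. The part of such cells in the values of this paragraph was not tested. In the few Cd79a cells of the other Kit+ libraries, 47 in control and 28 in Mll3/4SI, Meis1 was at 28.5 CPM (13.1 to 54.2) and 82.8 CPM (50.6 to 128), and these sets were too small to be compared.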
